A study of Mus musculus with 6 samples.

Results

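The oocyte genes described here are 10 genes chosen by name: *Zp1*, *Zp2*, *Zp3*, *Gdf9*, *Bmp15*, *Nlrp5*, *Zar1*, *Figla*, *Nobox* and *Oosp1*. They were represented by 11 probes, 1 for each gene and 2 for *Oosp1*, of the 55681 probes other than controls and the 20284 genes that could be named on the array. The study asked how fluorene-9-bisphenol (BHPF), a bisphenol used in plastics, acts on oestrogen-responsive organs of immature mice. Gene expression was measured on 6 one-colour Agilent microarrays, 1 for each of ovary, uterus and liver from control mice and from mice given BHPF. The mice were female CD-1 animals with an age of 24 days in the labels, an outbred strain with no transgene named. The BHPF groups received 50 mg/kg body weight daily by the intragastric route over 3 days, and the control groups received the vehicle, peanut oil, in the same way. Each array was hybridized with RNA mixed from 3 mice, so a group is 1 pool on 1 array.

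With 1 array a group, no p value and no spread between pools could be given for BHPF against control in the ovary. The 3 control arrays lay in 1 row of the slide and the 3 BHPF arrays in another, so treatment and slide row cannot be told apart. In whole organs, fewer oocytes and less RNA per oocyte cannot be told apart either. Between 61.3% and 74.5% of probes were well above background on an array, the lowest on the BHPF liver and the highest on the control ovary array, and no probe was saturated. The number of arrays limits the precision. In the table of processed values the control and the BHPF column of the uterus were exchanged relative to the scanner files, whereas the ovary and liver columns matched their own. Scanner files were used under their own labels here, and which labelling of the 2 uterus arrays is right could not be settled, so each uterus value given as control or BHPF depends on it. On the uterus array labelled BHPF the hepatocyte marker *Alb* stood at an intensity of 46476, against 2824 on the uterus array labelled control, a marker named after its values had been seen. The ovary arrays carried it too, at 10786 in the control and 13095 in the BHPF ovary. The part of such signal in the ratios of the oocyte genes was not tested.

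The zona pellucida is the glycoprotein coat of the egg, and the growing oocyte makes its subunits while the follicle enlarges. The same oocyte secretes growth factors that act on the granulosa cells around it, and stores proteins and messenger RNA that the embryo uses before its own genome is active. Genes of the last kind are called maternal-effect genes, because the mother's genotype decides how the embryo develops. FIGLA, a basic helix-loop-helix factor, and NOBOX, a homeobox factor, are transcription factors of the oocyte needed for expression of many of these genes.

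Basic helix-loop-helix factors bind the E-box, written CANNTG, and homeobox factors of the NOBOX kind bind sites such as TAATTA or TAATTG, so the 250 bases before the transcription start were searched for both. RefSeq promoters of GRCm38.p6 were found for 7 of the 10 genes, in 8 windows, *Nlrp5* having 2. *Zp1*, *Zp2* and *Gdf9* had none in the table used here. CANNTG, which reads the same on both strands, was present in all 8 windows, and in 66.2% of 32851 promoters of the same length. TAATTA or TAATTG, searched on both strands, was present in 2 windows, one of *Bmp15* and one of *Nlrp5*, and in 11.3% of all promoters. A match is a run of letters and not a measured binding site. These 3 promoters are shown for the egg coat, the secreted ligands and the gene with the largest number of E-box matches, each 5′ to 3′ with the matches in capitals. They are *Zp3* (chr5:135979855-135980104, plus strand), whose first match is the form CACGTG, found in 6.02% of all promoters and overlapping CANNTG by definition, *Bmp15* (chrX:6320725-6320974, minus strand), with TAATTA starting 225 bases before the transcription start and CAAATG at 201, and *Oosp1* (chr19:11691052-11691301, minus strand), with 5 matches to CANNTG.
Zp3: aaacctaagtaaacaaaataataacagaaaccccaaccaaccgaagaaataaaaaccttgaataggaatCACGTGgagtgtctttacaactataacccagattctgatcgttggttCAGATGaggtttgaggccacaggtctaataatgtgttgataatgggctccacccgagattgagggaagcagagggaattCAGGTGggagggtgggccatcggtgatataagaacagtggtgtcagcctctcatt
Bmp15: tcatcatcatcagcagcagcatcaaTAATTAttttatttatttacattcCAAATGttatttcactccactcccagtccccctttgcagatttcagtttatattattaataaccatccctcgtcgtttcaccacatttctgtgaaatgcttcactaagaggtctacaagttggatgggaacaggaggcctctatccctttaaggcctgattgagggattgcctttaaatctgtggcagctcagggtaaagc
Oosp1: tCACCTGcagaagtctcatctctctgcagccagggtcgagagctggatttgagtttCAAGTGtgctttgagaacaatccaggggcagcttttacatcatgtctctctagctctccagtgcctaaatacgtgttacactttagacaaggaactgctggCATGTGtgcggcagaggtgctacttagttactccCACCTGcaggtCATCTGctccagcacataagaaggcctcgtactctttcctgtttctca

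All 11 probes were well above background on both ovary arrays. Intensities are given as deposited, in arbitrary units on a linear scale, and are comparable between arrays only after each array's 75th percentile is subtracted on the log2 scale. That percentile was an intensity of 7499.7 on the control ovary array and 6389 on the BHPF ovary array. The scaled log2 level is the value after that subtraction, and a level of 0 equals the percentile.

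The subunits of the egg coat were bright in the ovary and showed almost the same scaled level on its 2 arrays. *Zp1*, whose product cross-links the filaments of the coat, had an intensity of 22763 in the control ovary and 18586 in the BHPF ovary. Its scaled log2 levels were 1.60 and 1.54. *Zp2*, which carries the domain that sperm bind, had intensities of 23644 and 20247 and a scaled log2 level of 1.66 on both arrays. For *Zp3*, the partner of *Zp2* in the filaments, the intensities were 48236 and 42318 and the scaled log2 levels 2.69 and 2.73. The dimmer raw values of the BHPF ovary array were thus of the size of the difference between the arrays' 75th percentiles.

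The oocyte-secreted genes were spread more widely. *Gdf9*, a ligand of the TGF-β family that acts on granulosa cells, was brighter on the BHPF ovary array (37651) than on the control ovary array (35498) even before scaling, with scaled log2 levels of 2.56 and 2.24. *Bmp15*, its X-linked paralogue and partner, did not share this, with intensities of 20815 in the control and 17890 in the BHPF ovary and scaled log2 levels of 1.47 and 1.49. *Oosp1*, an oocyte-secreted protein, had 2 probes, which read 39282 and 29844 in the control ovary and 32396 and 23159 in the BHPF ovary. Both *Oosp1* probes were lower after scaling on the BHPF array, at 2.34 against 2.39 and at 1.86 against 1.99.

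The 2 maternal-effect genes differed in direction between the ovary arrays. *Nlrp5* encodes MATER, a component of the subcortical maternal complex, and had intensities of 37704 in the control and 28683 in the BHPF ovary, or scaled log2 levels of 2.33 and 2.17. *Zar1*, an RNA-binding protein of the oocyte-to-embryo transition, had intensities of 28835 and 31958, or scaled log2 levels of 1.94 and 2.32. *Zar1* and *Gdf9* were the only members with a higher raw intensity on the BHPF ovary array.

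Of the transcription factors, *Figla* had intensities of 5966 in the control and 5410 in the BHPF ovary, with scaled log2 levels of −0.33 and −0.24. *Nobox* had intensities of 17890 and 13903, with scaled log2 levels of 1.25 and 1.12. The pair thus differed in direction after scaling, *Figla* slightly higher and *Nobox* slightly lower with BHPF. Both directions reversed under another background correction, given below.

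**Figure D1:**
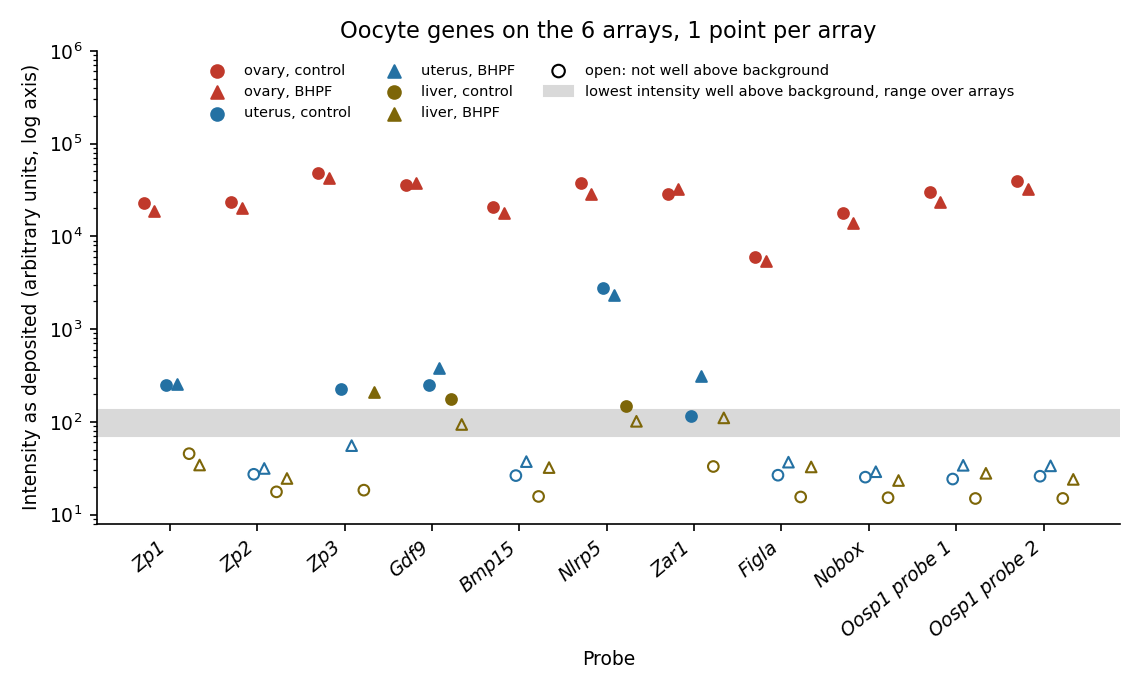
Intensity of each of the 11 probes on the 6 arrays (log axis, arbitrary units, as deposited), circles for control and triangles for BHPF, open where the probe was not well above background; the grey band spans the lowest intensity well above background on each array, 70.0 to 135. The lowest ovary point is that of *Figla* with BHPF (5410), and the highest points outside the ovary are those of *Nlrp5* in uterus (2767 and 2334).

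None of the 10 genes was 2-fold apart between the BHPF and the control ovary arrays, where 1.09% of all 16863 genes evaluated in the ovary were (0.474% higher and 0.617% lower with BHPF). At 1.5-fold the count was again 0 of 10, beside 3.49% of all genes. The log2 ratio, BHPF minus control, had a median of 0.01 over the 10 genes and 0.01 over all genes. It was below 0 for 4 of the 10, against 46.2% of all genes. The largest ratio was that of *Zar1*, 0.38 on the log2 scale or 1.30-fold, which 95.7% of all genes lay below. *Gdf9* followed at 0.32, or 1.24-fold, with 93.7% of genes below it. *Nlrp5* was the lowest at −0.16, with 17.4% of genes below it, and *Nobox* (−0.13), *Oosp1* (−0.09) and *Zp1* (−0.06) were the others below 0. The log2 ratios of *Zp2* (0.01), *Bmp15* (0.01), *Zp3* (0.04) and *Figla* (0.09) were above 0 by less than the noise between spots.

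That noise was taken from probes printed at 5 spots or more, whose log2 values had a median SD of 0.0985 within the control and 0.0876 within the BHPF ovary array, or 0.13 for a ratio of 1 spot to 1 spot. It covers the spots of an array and no difference between pools, animals or hybridizations. The ratios of 6 genes were within 1 such SD of 0, 4 were beyond 1 SD, and 2, *Gdf9* and *Zar1*, were beyond 2 SD. Ratios of this size were common, as the quartiles of all genes evaluated, −0.11 and 0.13, lay close to 1 SD. The 5th and 95th percentiles of all genes, −0.37 and 0.35, lay beyond 2 SD. Whether the ratios of the 10 genes exceed the spread between pools of mice could not be tested. With the background corrected by normexp instead, *Zp1* moved to 0.28, *Zp2* to 0.33, *Zp3* to −0.12, *Bmp15* to −0.28, *Figla* to −0.20 and *Nobox* to 0.01, whereas *Gdf9* (0.16) and *Zar1* (0.30) stayed above 0 and *Nlrp5* (−0.32) and *Oosp1* (−0.18) below. With the 2 ovary arrays quantile-normalized, 7 of the 10 genes were below 0.

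**Figure D2:**
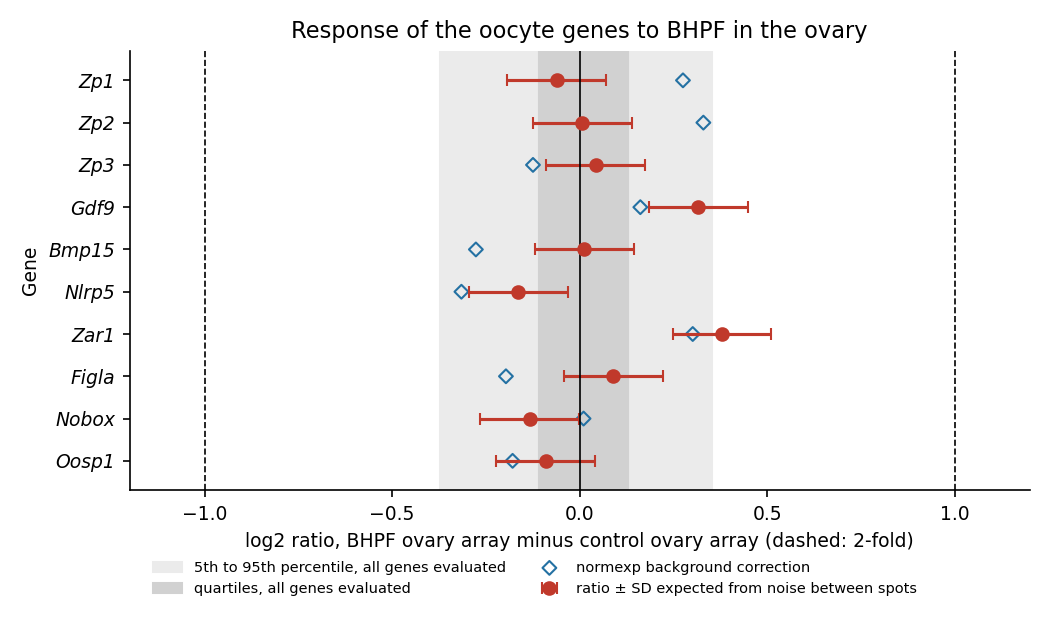
Log2 ratio of each gene, BHPF ovary array minus control ovary array (filled points, 1 array each), with bars of 0.13 for the SD expected from noise between spots and not between pools; diamonds give the ratio after normexp background correction, and grey bands the quartiles (−0.11 to 0.13) and the 5th to 95th percentile (−0.37 to 0.35) of all 16863 genes. Every filled point lies inside the dashed lines at 2-fold, and *Zar1* (0.38) is the one beyond the 95th percentile.

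Signals of the somatic cells of the follicle were present on both ovary arrays. The intensities of the 11 granulosa cell markers, each divided by the array's 75th percentile, summed to 73.9 in the control and 78.2 in the BHPF ovary. The sums of the 5 theca and interstitial cell markers on the array were 37.5 and 35.8, and those of the 10 oocyte genes 36.7 and 38.2. Oviduct markers, from a neighbouring organ that can be dissected with the ovary, summed to 0.688 and 0.404. They summed to 4.80 and 4.24 in control and BHPF uterus, and all 3 probes were lower in ovary than in uterus, as were 12.4% of all probes tested. Of the 3 markers of this list, *Foxj1*, a factor of ciliated cells, had a log2 ratio of −1.16, *Ovgp1*, an oviduct glycoprotein, had −0.74, and *Pax8* was well above background on the control ovary array only. The part of the oviduct signal in the ratios of the oocyte genes was not tested.

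Against uterus and liver, the oocyte genes were far higher in the ovary. The 2 arrays of a tissue, 1 with and 1 without BHPF, were compared with limma on all 6 arrays with BHPF as an additive term, so that the spread includes any response to BHPF that differs between tissues. All 11 probes were higher in ovary than in uterus, where 11.1% of 43892 probes tested were and 12.4% were lower. All 11 were also higher in ovary than in liver, where 29.5% of all probes were and 29.9% were lower. The limma adjusted p values ran from 0.00182 to 0.0263 against uterus and from 0.000654 to 0.0108 against liver, with 2 residual degrees of freedom. The fit without a term for BHPF, which does not depend on which uterus array is the control, also called all 11 probes in both comparisons.

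*Zp2*, *Bmp15*, *Figla*, *Nobox* and *Oosp1* were well above background on both ovary arrays and on no other array. This was the case for 1592 of the 44119 probes seen on any array (3.61%), 6 of them probes of these 5 genes. *Zp2* had intensities of 27.2 and 31.4 in control and BHPF uterus and of 17.6 and 24.5 in control and BHPF liver. As these are background values, its ovary signal was at least 137-fold that of uterus and at least 122-fold that of liver. Such a bound is the ovary mean over the detection limit of the other tissue, taken on each of its arrays as the dimmest probe that was still well above background there. Where a probe's own intensity was above that limit, its own intensity was used. Some probes above the limit were still not well above background, so the bounds are approximate. The bounds against uterus were at least 121-fold for *Bmp15*, at least 35.5-fold for *Figla*, at least 98.6-fold for *Nobox*, and at least 164-fold and at least 223-fold for the *Oosp1* probes. Against liver they were at least 107-fold for *Bmp15*, at least 31.6-fold for *Figla*, at least 87.6-fold for *Nobox*, and at least 146-fold and at least 198-fold for *Oosp1*. On the 4 uterus and liver arrays the intensities of these probes lay between 14.9 and 37.2.

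*Nlrp5* stood apart in the uterus. Its intensities there were 2767 (control) and 2334 (BHPF), well above background on both arrays, against 150 and 101 in liver, where it was well above background on the control array only. The uterus signal was 10.3% of the ovary signal in the control and 11.5% in the BHPF arrays after scaling. The ovary exceeded the uterus by 3.20 ± 0.18 on the log2 scale (SE, n = 2 arrays a tissue), or 9.19-fold, with a limma adjusted p of 0.00286. Against liver the log2 difference of *Nlrp5* was 7.02 ± 0.18, or at least 125-fold with the dim array at its detection limit. On the same uterus arrays the probes of *Zp2*, *Bmp15*, *Figla*, *Nobox* and *Oosp1* were at background. Of the 16 genes listed for the subcortical maternal complex and its relatives, *Nlrp5* included, 11 had no probe well above background in the uterus, 4 had one on both uterus arrays and 1 on a single array. Of the components of the complex, *Ooep* (25.7 in the control uterus), *Khdc3* (25.4) and *Padi6* (65.3) were among the 11, whereas *Tle6* read 4657 and 4293 in the uterus against 47773 and 37548 in the ovary. Markers of other ovarian cells were partly seen in the uterus too. Of 11 granulosa cell markers, 8 were well above background on both uterus arrays, 1 on a single array and 2 on neither, and their scaled intensities summed to 8.54 and 7.79 there, against 73.9 and 78.2 in the ovary. Of 5 theca and interstitial markers, 3 were well above background on both uterus arrays and 2 on neither, with sums of 0.221 and 0.175. In control and BHPF liver the granulosa markers summed to 8.43 and 7.94, and the theca and interstitial markers to 9.43 and 9.20. Such a sum is therefore not particular to ovarian cells. The part of ovarian tissue in the uterus signal of *Nlrp5* was not tested.

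The other genes seen in the uterus had weak signals there. *Zp1* read 251 in the control and 254 in the BHPF uterus, 1.55% and 1.93% of its ovary signal, and the ovary was higher by 5.85 ± 0.20 on the log2 scale (57.8-fold, limma adjusted p = 0.00182). In liver *Zp1* was not above background (45.4 and 34.2), a difference of at least 114-fold. *Gdf9* read 247 and 383 in uterus, 0.979% and 1.44% of its ovary signal, and the ovary was 84.3-fold higher. *Gdf9* in liver was well above background on the control array (176) and not on the BHPF array (93.6). *Zar1* was near the detection limit on the control uterus array (116) and read 312 on the BHPF uterus array, with the ovary 113-fold higher. Liver intensities of *Zar1* were 33.0 and 110, neither well above background, which gave at least 168-fold.

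*Zp3* was the least certain of the tissue differences. It was well above background on the control uterus array (226) and not on the BHPF uterus array (55.4), and the reverse held in liver, at 18.3 on the control and 210 on the BHPF array. The ovary was higher by 8.16 ± 1.38 on the log2 scale against uterus and by 8.47 ± 1.38 against liver (SE, n = 2 arrays a tissue), with limma adjusted p values of 0.0263 and 0.0108. These values take the dim arrays at their own intensity, and with each dim array at its detection limit the log2 difference was at least 7.52 against uterus and at least 7.50 against liver. Both SEs were the largest among the 11 probes. The limma adjusted p of *Zp3* against uterus was above 0.05 without any one of the 4 ovary and uterus arrays (0.138 without the control ovary, 0.123 without the BHPF ovary, 0.0786 without the control uterus and 0.139 without the BHPF uterus array), and over 13 alternatives it ran from 0.000136 to 0.139. Against liver it was 0.0652 without the control and 0.0557 without the BHPF ovary array, in a range from 4.62e-05 to 0.0652. *Zar1* against uterus had an adjusted p of 0.00331, which rose to 0.0525 without the control and 0.0516 without the BHPF uterus array and ran from 8.09e-05 to 0.0525 over 13 alternatives.

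Between uterus and liver, the scaled log2 levels of *Nlrp5* (−0.95 and −0.96 in control and BHPF uterus, −4.52 and −5.02 in control and BHPF liver) were higher in both uterus arrays, and so were those of *Zp1* (−4.41 and −4.15), which was at background in liver, also with the liver values set at the detection limit. The same held for 36.3% of the 40932 probes seen on any of these 4 arrays. The levels of *Gdf9*, *Zar1* and *Zp3* overlapped between these tissues, and the other 5 genes had no order there because they were at background in both. These uterus and liver values were not tested against each other.

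**Figure D3:**
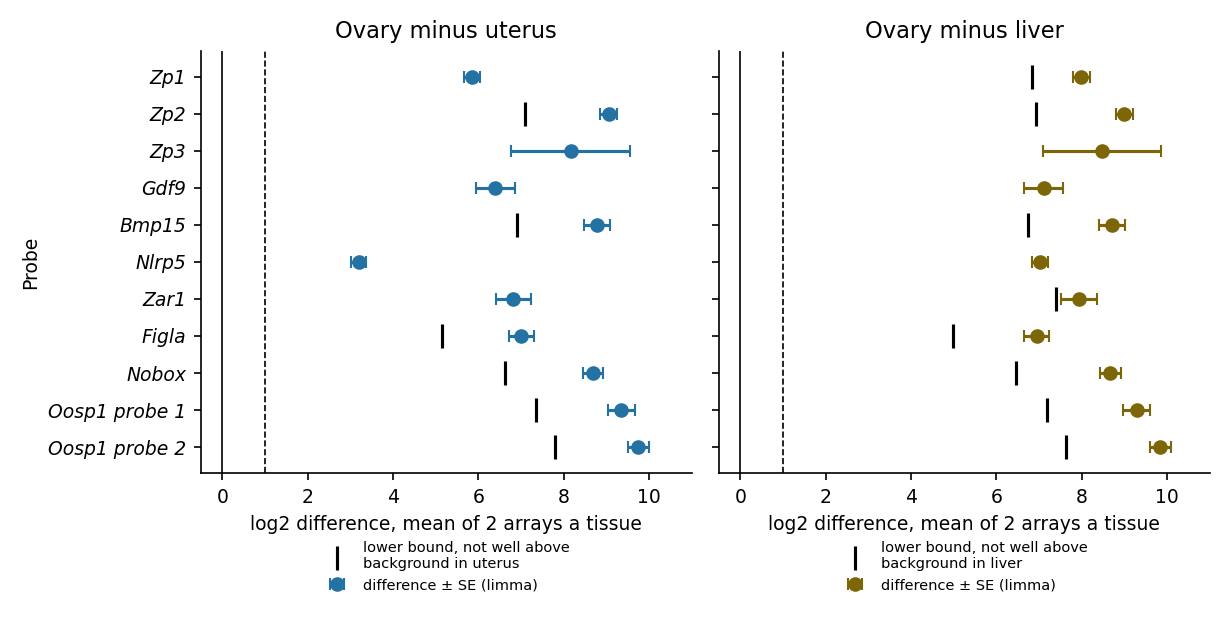
Log2 difference between the mean of the 2 ovary arrays and the mean of the 2 uterus arrays (left) or the 2 liver arrays (right) for each probe, with limma standard errors; black ticks give the lower bound where a probe was not well above background in the other tissue, and the dashed line is 2-fold. *Nlrp5* against uterus (3.20) is the smallest difference, and *Zp3* has the widest error (1.38) in both panels.

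The probes seen in the ovary alone numbered 1592, of which 704 had a gene symbol, for 650 genes. Genes with the pattern of *Zp2*, *Bmp15*, *Figla*, *Nobox* and *Oosp1* were picked from them by the gap in scaled log2 level between the lower ovary array and the highest of the 4 other arrays. The other arrays are at background for all of these probes, so the gap follows the brightness of the probe and the background, and no order is read from it. Outside the lists of oocyte and follicle genes, genes with the largest gaps over the 6 arrays included *Fbxw24*, *Fbxw21*, *Acsbg1*, *Prss35*, *Khdc1b*, *Accsl*, *Ftdc2*, *Oog3* and *Fbxw18*. Their log2 ratios of BHPF to control ovary ran from −0.41 for *Fbxw24* to 0.25 for *Acsbg1*, and no common direction is read from them. *Fbxw18*, *Fbxw21* and *Fbxw24* belong to one family of F-box genes, whose similar sequences a probe may not tell apart.

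Other oocyte genes, grouped by role into lists of 68 further genes, were likewise close between the ovary arrays. Of 66 on the array, 64 were evaluated in the ovary. None was 2-fold and none 1.5-fold apart between the BHPF and control ovary arrays, where 1.09% and 3.49% of all genes were. With shares this low, a count of 0 among 64 genes says little about oocyte genes in particular. The log2 ratios of the 64 genes ran from −0.29 to 0.44 with a median of 0.01. They were below 0 for 29, against 46.2% of all genes, above 0 for 34, and 0 by its bound for 1. Of 77 probes of these genes tested with limma, 66 were higher in ovary than in uterus and 3 were lower, against 11.1% and 12.4% of all probes. Higher in ovary than in liver were 69, against 29.5% of all probes. For 31 of these genes at least 1 probe was seen in the ovary alone, as were 3.61% of the probes seen on any array.

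Among secreted proteins, *Oosp3*, a relative of *Oosp1*, had intensities of 15704 in the control and 12015 in the BHPF ovary, a log2 ratio of −0.16. *Oosp2* had 10400 and 8719, a log2 ratio of −0.02. *Fgf8*, a fibroblast growth factor with which the oocyte acts on cumulus cells, had a log2 ratio of 0.33, close to that of *Gdf9*. Of the 15 relatives and partners of *Nlrp5* in the subcortical maternal complex, 11 were below 0, where 46.2% of all genes were, and 4 above. Their log2 ratios ran from −0.19 to 0.29, with a median of −0.10. The noise between spots of a single ratio (0.13) does not measure the spread of a median, which was not estimated. All 19 probes tested of these 15 genes were higher in ovary than in both other tissues. Of all probes tested, 11.1% were higher in ovary than in uterus and 29.5% than in liver. Examples were *Padi6*, which the cytoplasmic lattices of the egg require, at −0.14 (35076 in the control and 27202 in the BHPF ovary), *Nlrp4b* at −0.03, *Nlrp4a* at −0.03 and *Nlrp9a* at 0.01, and *Nlrp2* was the highest of them at 0.29. The NLRP genes form a family of close paralogues, which makes single probes of it uncertain.

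Maternal egg proteins beside *Zar1* numbered 13, 5 below and 8 above 0, with a median of 0.03 on the log2 scale. They included *Dppa3*, which protects the maternal genome from demethylation, at 0.14 (21194 and 19875), *Bcl2l10*, a relative of BCL2, at 0.14, *Omt2a* at 0.19, *Omt2b* at −0.07 and *Gtsf1*, a factor of the piRNA pathway, at 0.09. None of these 5 reached the ratio of *Zar1*, 0.38. Of 11 RNA-binding proteins and translational regulators, 9 were above 0, with a median of 0.07. Among them were *Dazl* at 0.06, *Btg4*, which directs the decay of maternal messenger RNA, at 0.19, *Patl2* at 0.22 and *Mov10l1* at 0.29. The germ cell helicase *Ddx4* was at −0.07. Of all genes 46.2% were below 0, and the spread expected of a list median was not estimated. Beside *Figla* and *Nobox*, 9 further transcription factors had a median of 0.00 on the log2 scale, 4 below and 5 above 0. The homeobox genes *Obox5* (−0.08), *Obox1* (−0.14) and *Lhx8* (−0.08) were below 0, and *Pou5f1* (0.16) and *Gbx2* (0.44) above. Genes of meiotic arrest and maturation had a median of 0.03 over 10 genes, from *Mos*, the kinase that holds the egg in metaphase II, at −0.23 to *Aurkc* at 0.31, with *Wee2* at 0.02, *Bub1b* at 0.05 and *Ccnb1* at −0.09. At the egg surface, *Astl*, the protease that cleaves ZP2 after fertilization, had a log2 ratio of −0.29, *Cd9* had −0.23, and *Izumo1r*, the egg receptor for sperm IZUMO1, had 0.03. *Cd9* is expressed in many tissues and was brighter in the uterus (57681 and 39616) than in the ovary (36643 and 26707).

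The cells that receive GDF9 and BMP15 were also represented, by genes named here after their values had been seen. Of 12 receptors and effectors of these ligands, 10 had log2 ratios below 0 and 2 above, with a median of −0.04 and none 1.5-fold apart. Of all genes 46.2% were below 0 and 3.49% were 1.5-fold apart. The spread expected of a list median was not estimated. The shared type II receptor *Bmpr2* was at −0.04 and the type I receptor *Bmpr1b*, through which BMP15 signals, at −0.01, while *Tgfbr1*, the type I receptor of GDF9, averaged −0.33 from 2 probes that disagreed, at −0.62 and −0.04. Of 17 granulosa and cumulus genes that oocyte factors regulate, 6 were below and 10 above 0, with a median of 0.04, and 1 was at least 1.5-fold lower. This was *Id1*, a transcriptional inhibitor downstream of BMP receptors, at −0.59 (17417 in the control and 9884 in the BHPF ovary). The related *Id2* and *Id3* did not share this, at 0.23 and −0.01. At the other end of the list *Ptx3*, a matrix protein of the expanding cumulus, was at 0.50 (3354 and 4040). Granulosa cell markers were 9 of 11 above 0, with a median of 0.06, *Fshr* at 0.19 and the aromatase gene *Cyp19a1* at −0.27. Theca and interstitial markers had a median of −0.10 over 5 genes, the lowest being *Star*, a carrier of cholesterol into mitochondria, at −0.51, with 2 probes at −0.97 and −0.06.

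Genes of meiotic chromosomes had a median of 0.06 over 12 genes and held the widest ratios of the germ cell lists, those of 2 genes named after their values had been seen. *Hormad1*, a protein of the chromosome axis, was at −0.60, with both probes alike (−0.62 and −0.58), at a low mean intensity of 497 in the control and 280 in the BHPF ovary. *Msh5*, a factor of crossover formation, was at 0.95 (917 and 1505), and its probe was also well above background in uterus and liver. Each was beyond 1.5-fold, as were 3.49% of all genes, and neither reached 2-fold.

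**Figure D4:**
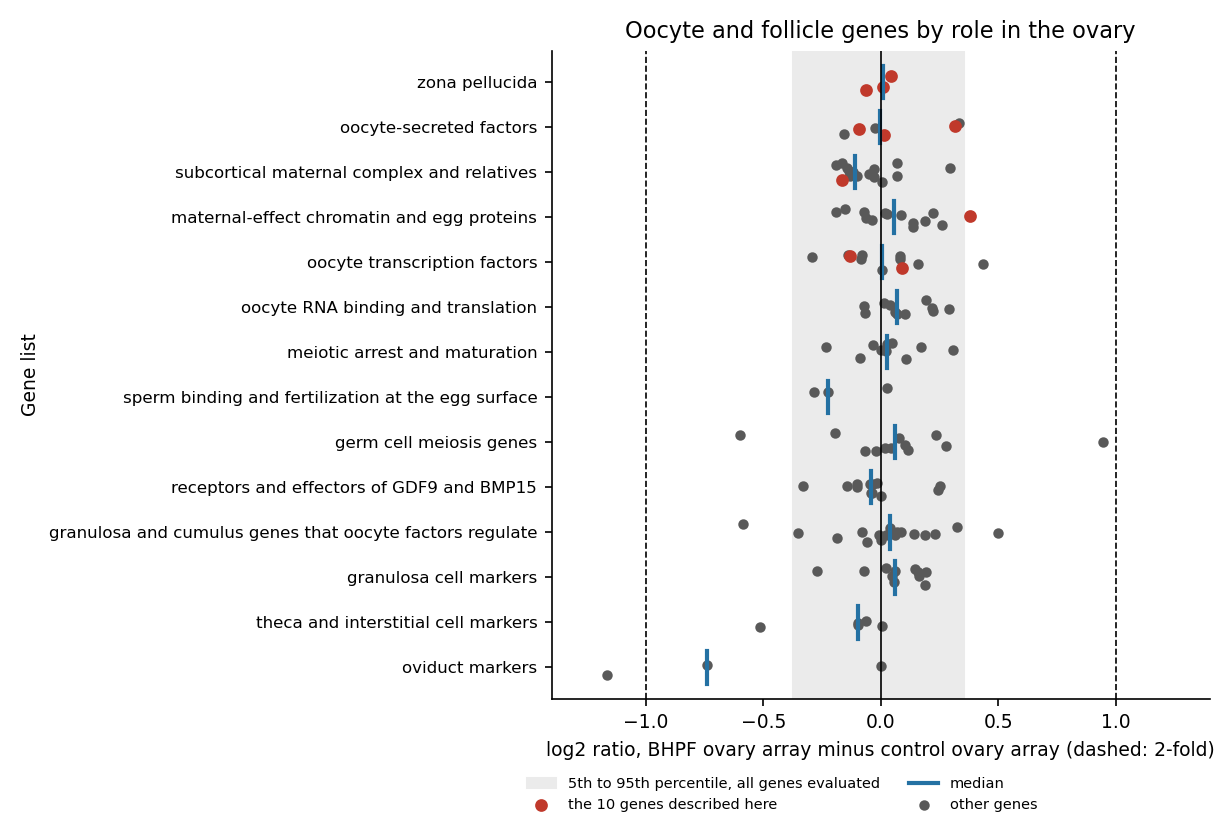
Log2 ratio of each evaluated gene, BHPF ovary array minus control ovary array (1 array each, 1 point a gene), by role, with the 10 genes described here in red, other genes in grey and the median of all points of a role as a blue bar; the grey band is the 5th to 95th percentile of all 16863 genes (−0.37 to 0.35). No oocyte gene of the first 8 roles reaches the dashed lines at 2-fold, and *Foxj1* (−1.16), an oviduct marker, is the one point beyond them.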

How the data were processed

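Per the file headers, the authors extracted the arrays with Agilent Feature Extraction 11.5.1.1, whereas the labels name 9.1. The deposited scanner files hold intensity on a linear scale, background-subtracted and detrended, not normalized between arrays. The authors' table of log2 values, a percentile shift from GeneSpring per the methods, served as an alternative.

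Control spots and outlier spots were left out, the 75th percentile over 55681 probes was subtracted from log2 intensity within each array, and probes of a gene were averaged. A gene was evaluated in the ovary when well above background on at least 1 array, with a bound for the other. Tissues were compared with limma 3.58.1 in R 4.3.3 over all 43892 probes well above background on any array, with Benjamini-Hochberg adjustment at 0.05. The fit was also run on simulated normal data with residual SDs shuffled over probes. That setting does not represent probes near background, so no support is drawn from it. Symbols came from RefSeq accessions of GRCm38.p6 (48.1% of probes). The array design names build mm9, so no probe coordinates are given.

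The 10 genes and all lists were chosen with earlier results of these data known. Named genes are these 10, per oocyte role up to 5 others with the largest excess of control ovary over the other control tissues, and the 10 genes outside the lists with the largest gap, 1 of which is not reported here; genes named from the follicle, meiosis and other cell type lists, and *Tle6*, *Ooep* and *Khdc3*, were chosen after their values had been seen. The alternatives tried were normexp (offset 50), the 50th percentile, the 75th percentile over probes seen on all arrays, quantile normalization, the authors' table, other filters, the brightest probe, 1.5-fold, a fit without BHPF, trended robust eBayes, and leaving out each array.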

Additional observations from a re-analysis of the deposited data

How the results depend on the processing

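The count of 0 genes at 2-fold held for the 10 oocyte genes under each alternative tried. Their median log2 ratio, 0.01, became −0.057 with normexp background correction, which was run on the median spot signal, and their count below 0, 4 as reported, became 7 with quantile normalization of the 2 ovary arrays. Of 80 single ratios under alternatives, 72 moved by less than the noise between spots and 8 by more, all 8 with normexp. Most of the 72 could not have moved. The filters leave genes seen on both ovary arrays unchanged, and the brightest probe can change only *Oosp1*. The other percentiles and the authors' table shift all 10 genes by the same amount. *Gdf9* (0.16 to 0.32), *Zar1* (0.30 to 0.38), *Nlrp5* (−0.32 to −0.16) and *Oosp1* (−0.18 to −0.05) kept their sign throughout, and the other 6 genes did not. The cause was not tested.

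No tissue difference of the 11 probes reversed, and of 286 under alternatives 277 stayed past the threshold. Leaving out 1 array at a time, limma called 9 to 11 probes higher than in uterus and 10 to 11 higher than in liver. Calls lost were those of *Zp3* against uterus (adjusted p 0.0657 with trended robust eBayes, 0.138 without the control ovary, 0.0786 without the control uterus, 0.123 without the BHPF ovary and 0.139 without the BHPF uterus array), *Zp3* against liver (0.0652 and 0.0557 without the control and the BHPF ovary array) and *Zar1* against uterus (0.0525 and 0.0516 without the control and the BHPF uterus array). A tissue left with 1 array was assumed to vary like the others. No paired analysis was possible because each group has 1 array where BHPF was compared with control, whereas the tissue fit pairs the arrays of a treatment through its term for BHPF, and without that term limma also called all 11 probes in both comparisons. Background sets the limit in uterus and liver, where most of these probes have only a bound.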
